A study of Mus musculus with 12 samples.

Results

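Integrin genes and genes of the focal adhesion were compared between angiogenic and non angiogenic islets of RIP1-Tag2 mice. The 45 genes were chosen by name, as 26 integrin subunits and 19 proteins that sit at the inner side of the integrin, and 44 of them had a row on the array, out of 19938 genes measured. Only Ptk2, the gene of focal adhesion kinase, had no row with a single gene symbol and is not reported. Mice were 8 weeks old, on the C57BL/6 background, and carried the Rip1Tag2 transgene, which makes pancreatic beta cells express the SV40 T antigen, so non angiogenic islets also came from transgenic mice and no normal islets were compared. RNA came from pools of isolated islets and was measured on 12 Affymetrix arrays, 6 labelled Angiogenic and 6 labelled Non Angiogenic. Islets had been assigned to a class by their appearance. The labels do not say whether each array had its own pool, nor how many mice and islets a pool held. Pools may share mice and arrays may share a pool, so that the p-values are about the spread among these 12 arrays alone.

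Integrins are receptors of an alpha and a beta subunit that hold cells to the extracellular matrix or to other cells. Most alpha subunits pair with the product of Itgb1 and bind collagen, laminin or fibronectin, those with the product of Itgav bind vitronectin and related matrix proteins, and those with Itgb2 or Itgb7 are found on leukocytes. Inside the cell, talins and kindlins bind the beta tail and activate the receptor, and vinculin, tensins, filamin, alpha-actinins and the complex of integrin-linked kinase, PINCH and parvin couple it to actin. On growing vessels, integrins of endothelial cells and pericytes hold these cells to the basement membrane and to provisional matrix.

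Several integrins of the matrix rose in angiogenic islets, while most intracellular adaptors had small differences above 0. Of the 44 genes, 13 were higher in angiogenic islets and 0 were lower at an adjusted p under 0.05 (limma, Benjamini-Hochberg over all genes), against 3.55% higher and 0.948% lower over all genes. At an unadjusted p under 0.05 from limma, 22 were higher and still 0 lower, where 1548 and 1313 of all genes were. The median log2 difference was 0.14 for the 44 genes and -0.02 for all genes. By class, 6 of 13 alpha subunits of matrix integrins, 3 of 6 beta subunits of matrix integrins, 1 of 7 leukocyte integrins and 3 of 18 intracellular adaptors were higher. The median log2 differences of these classes were 0.25, 0.15, 0.05 and 0.13, so matrix beta subunits and adaptors had similar medians. Of the 18 adaptors, 17 had a difference above 0, as had 7987 of all 19938 genes. The other 31 genes had differences from -0.11 to 0.28, 22 of them above 0, and for all 31 the 95% interval of the difference stayed within 1.5-fold in either direction. That bound is wide and does not set them apart from genes that passed. The intervals of Itgb1 (0.09 to 0.31) and Itgax (0.23 to 0.51), among others that passed, also lay within it. None of the 44 genes is in the list of matrix genes or of stromal markers that the study printed for these arrays. The matrix list holds only genes of the extracellular matrix and its associated molecules, drawn from a longer list of deregulated genes. The longer list is not printed in the text used here, so absence does not show that the study missed these genes.

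**Figure D1:**
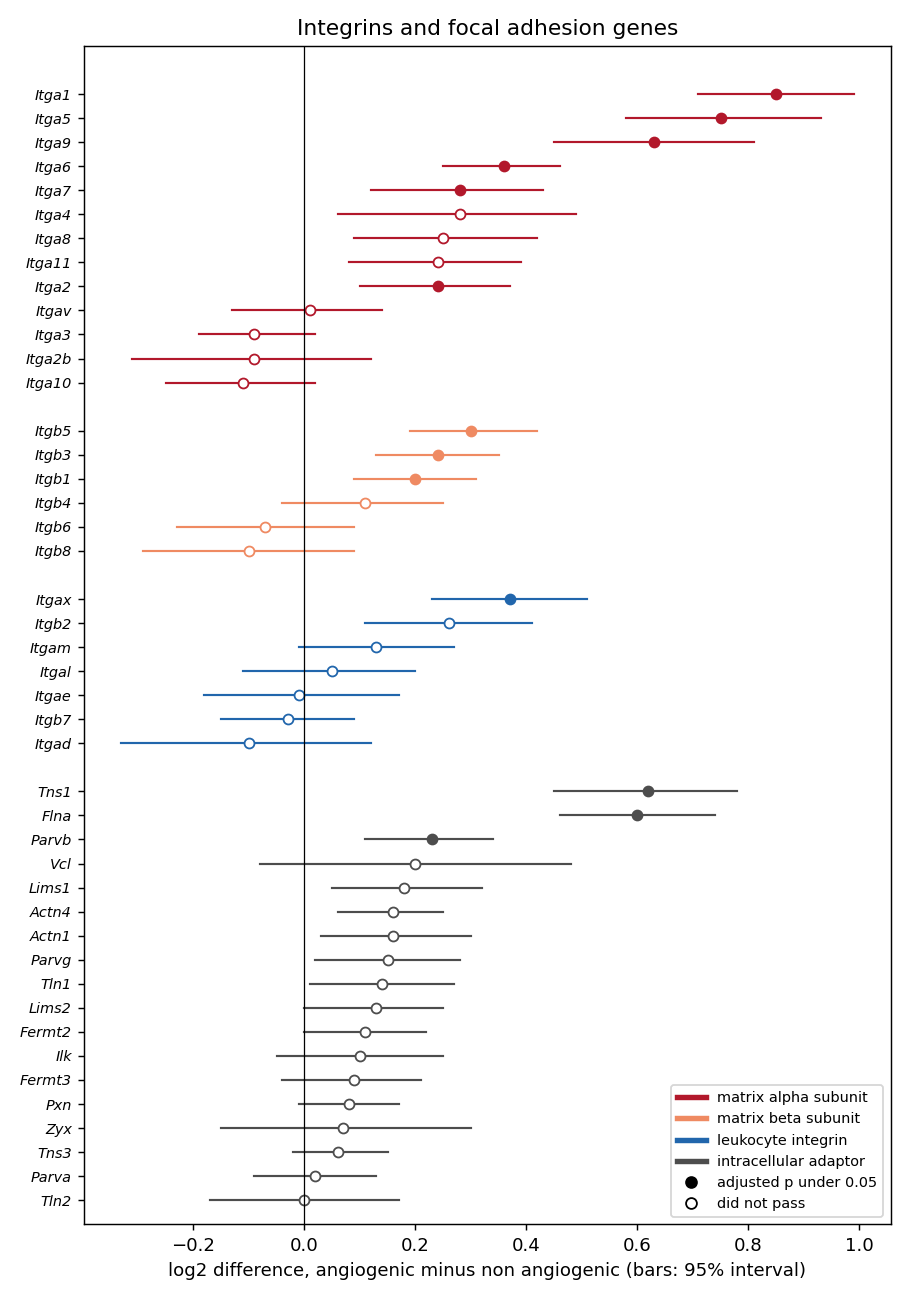
Difference in log2 level between angiogenic and non angiogenic islets for each of the 44 genes, in log2 units, with its 95% interval as a bar. Filled points passed the adjusted test, and the largest differences are those of Itga1 (0.85), Itga5 (0.75), Itga9 (0.63), Tns1 (0.62) and Flna (0.60).

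The 12 arrays fell into a set of replicates 1 to 3 and a set of replicates 4 to 6, each with 3 arrays of both groups. With group in the model, 16 of the 44 genes differed between the sets (36.4%, and 36.9% of all genes, limma), so values are also given within each set, a split chosen because the arrays had been seen to stand apart this way. The study's text speaks of 2 profiling experiments done independently of each other, but no label ties an array to one of them. Arrays of a set may thus come from the same experiment, in which case they are not fully independent. Tests that count 6 arrays a group would then overstate the replication. With the set as a block 20 of the 44 genes were higher and 0 lower, against 5.88% and 2.74% of all genes. These 20 held all 13 and in addition Itga4, Itga8, Itga11, Itgb2, Lims1, Actn1 and Actn4. Replicates 1 to 3 alone, with 3 arrays a group, gave 6 higher genes (2.37% of all genes, 0.331% lower) and replicates 4 to 6 alone gave 11 (3.11%, and 0.737% lower). An unpaired t-test with pooled variance, a kind of test that the study's methods name, is called the methods' t-test here. The study selected its genes with BRB-ArrayTools, which was not rerun. The methods' t-test called 12 of the 44 genes higher and 0 lower after adjustment (2.94% and 0.903% of all genes). At an unadjusted p under 0.05, the same t-test called 26 higher and 1 lower (7.67% and 6.95%). With the replicate number as a block, 17 were higher and 0 lower (5.31% and 2.25%). All 13 genes had a positive difference in both sets, and no gene of the 44 differed between the sets in its group difference (interaction in limma, adjusted over all genes, 0.00502% of which were called). Before adjustment, this interaction fell under 0.05 for Itga11 and Itga7 only (adjusted p = 0.74 and 0.78 in limma), about as many of 44 genes as chance alone would give. Both had the larger difference in replicates 4 to 6.

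The regions upstream of the start sites are shown for the 2 integrins and the 2 adaptors with the largest differences, a choice made after their values were seen. Sequences are from RefSeq, 250 bases up to the start site, 5′ to 3′ on the strand of the gene, and 32 of the 45 genes had an entry in that table. Capitals mark GGGCGG and GGAATG on either strand, the only ones present of the 4 motifs searched.
Itga1 promoter, GRCm38.p6 chr13:115101965-115102214, - strand: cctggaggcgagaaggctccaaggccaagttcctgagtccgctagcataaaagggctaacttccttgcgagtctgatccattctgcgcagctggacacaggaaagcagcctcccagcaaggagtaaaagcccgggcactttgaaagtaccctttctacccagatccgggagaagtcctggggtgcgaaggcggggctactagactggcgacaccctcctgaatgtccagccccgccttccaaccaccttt
Itga5 promoter, GRCm38.p6 chr15:103366792-103367041, - strand: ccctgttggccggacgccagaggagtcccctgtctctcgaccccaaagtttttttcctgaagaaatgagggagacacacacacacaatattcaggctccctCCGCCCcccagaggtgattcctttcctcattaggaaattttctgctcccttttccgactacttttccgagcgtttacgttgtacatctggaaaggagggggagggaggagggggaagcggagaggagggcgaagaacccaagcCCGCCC
Tns1 promoter, GRCm38.p6 chr1:74124549-74124798, - strand: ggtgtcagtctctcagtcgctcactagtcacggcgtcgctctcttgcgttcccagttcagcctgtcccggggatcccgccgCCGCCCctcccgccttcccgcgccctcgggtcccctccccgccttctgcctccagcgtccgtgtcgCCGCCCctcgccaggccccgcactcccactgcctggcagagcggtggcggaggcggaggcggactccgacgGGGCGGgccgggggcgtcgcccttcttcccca
Flna promoter, GRCm38.p6 chrX:74246535-74246784, - strand: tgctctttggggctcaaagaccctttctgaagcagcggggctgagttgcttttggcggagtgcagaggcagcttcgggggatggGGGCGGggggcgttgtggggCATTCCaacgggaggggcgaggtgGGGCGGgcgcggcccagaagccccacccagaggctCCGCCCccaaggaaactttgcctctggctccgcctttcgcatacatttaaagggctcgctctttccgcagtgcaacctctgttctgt
The GC box GGGCGG occurred 2 times upstream of Itga5, 3 times upstream of Tns1 and 3 times upstream of Flna, and in 32.7% of all 32851 promoters. With a match in any entry of a gene counted, 18 of the 32 genes held it, among them 6 of the 10 higher genes with an entry. Flna also held GGAATG, the letters of the TEAD motif, found in 12.6% of promoters. Counted in the same way, 5 of the 32 genes held GGAATG, namely Flna and Itgb1, which were higher, and Itga10, Vcl and Actn4, which did not pass. Itga1 held none of the 4 motifs. TGANTCA, a loose form of the AP-1 motif with any base at N (6.75% of promoters), was found upstream of Itgax, Zyx and Actn4.

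The CArG box, bound by serum response factor at genes of actin and its partners, was searched because vinculin and filamin belong to that system. It lay upstream of none of the 10 higher genes that had an entry, and of 3 of all 32 genes, counted with a match in any entry of a gene. Of all promoter entries 1.47% held it, a share per entry that is not like for like with a count of genes. The 3 genes were Vcl, Fermt2 and Itgb6, shown with the box in capitals and 10 bases on each side.
Vcl, GRCm38.p6 chr14:20929161-20929190, + strand: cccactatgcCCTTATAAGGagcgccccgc
Fermt2, GRCm38.p6 chr14:45530250-45530279, - strand: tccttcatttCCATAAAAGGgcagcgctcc
Itgb6, GRCm38.p6 chr2:60673724-60673753, - strand: cacctgacttCCTTATAAGGtgaatgagga
None of these 3 genes passed the test. A match is a description of the letters and not of binding.

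Among the alpha subunits that bind matrix, Itga1 differed most. It encodes a collagen receptor found on smooth muscle, pericytes and capillary endothelium. Its log2 level lay between 8.60 and 9.04 (median 8.84) on the angiogenic arrays and between 7.89 and 8.09 (median 7.98) on the non angiogenic arrays. The groups were far apart, with a ratio of 1.81 (log2 difference 0.85 with a standard error of 0.07, limma adjusted p = 2.29e-06). Replicates 1 to 3 gave 0.81 and replicates 4 to 6 gave 0.90. Itga2, another collagen receptor, had levels of 7.65 to 7.97 (median 7.77) and 7.44 to 7.64 (median 7.59). Its groups just failed to overlap, and its difference of 0.24 passed narrowly (adjusted p = 0.047). Leaving out any array but angiogenic replicate 5 removed that call, in 11 of 12 such fits (adjusted p from 0.031 to 0.11). The remaining collagen receptors did not pass. Itga11, a receptor of fibroblasts, had a difference of 0.24 (adjusted p = 0.088), with 0.09 in replicates 1 to 3 and 0.39 in replicates 4 to 6, and Itga10, known from cartilage, had -0.11.

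Itga5 encodes the alpha subunit of the main fibronectin receptor, which vessels need to form. Its log2 level was 8.19 to 8.52 (median 8.43) in angiogenic and 7.36 to 7.85 (median 7.68) in non angiogenic islets. Every angiogenic array lay above every non angiogenic one, at a ratio of 1.69 (log2 difference 0.75 with a standard error of 0.08, limma adjusted p = 4.22e-05). Itga9, whose product binds tenascin-C and fibronectin, ran from 8.15 to 8.56 (median 8.40) against 7.49 to 7.86 (median 7.78). Its groups did not overlap either, and the ratio was 1.55 (log2 difference 0.63, standard error 0.08, adjusted p = 3.14e-04). Itga9 was different in replicates 4 to 6 from replicates 1 to 3 by -0.20 in the model, yet its group difference was 0.62 and 0.64 in the 2 sets. Itga4, which binds fibronectin and Vcam1, had levels of 8.15 to 8.71 (median 8.29) against 7.88 to 8.37 (median 8.03). These overlapped, and its difference of 0.28 did not pass (adjusted p = 0.18 from limma, and 0.023 when the set was a block).

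Of the laminin receptors, Itga6 and Itga7 were higher and Itga3 did not pass. Itga6, a laminin receptor of endothelial and epithelial cells, had a log2 level of 9.66 to 9.91 (median 9.85) in angiogenic and 9.40 to 9.52 (median 9.47) in non angiogenic islets. The change was smaller than that of Itga1 but the spread was narrow, and the ratio was 1.28 (log2 difference 0.36, standard error 0.05, adjusted p = 4.22e-04). Itga7, the laminin receptor of muscle, had medians of 7.04 and 6.81 without overlap and was 1.21-fold higher (adjusted p = 0.042 from limma). Only without non angiogenic replicate 1 or 2 was that call kept, and the 10 other fits that dropped an array lost it (adjusted p as high as 0.10). Itga3, the laminin receptor of many epithelia, had a difference of -0.09 with a 95% interval from -0.19 to 0.02. Itga8, a receptor of mesenchymal cells for nephronectin, had a difference of 0.25 (adjusted p = 0.084), and Npnt, the gene of that ligand, had 0.05. Itga2b, the alpha subunit of the platelet fibrinogen receptor, had -0.09 (adjusted p = 0.78), beside platelet markers of which 1 of 5 was higher.

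Itgav, the shared alpha subunit of the vitronectin receptors, showed almost no difference. Its log2 level ran from 10.99 to 11.40 (median 11.16) in angiogenic and from 11.13 to 11.23 (median 11.18) in non angiogenic islets. The angiogenic arrays lay on both sides of the non angiogenic ones, and the difference was 0.01 with a 95% interval from -0.13 to 0.14. Among the beta subunits that join it, Itgb5 rose most, from 10.39 to 10.54 (median 10.47) to 10.66 to 10.90 (median 10.73). Its groups were apart, at a ratio of 1.23 (log2 difference 0.30, standard error 0.05, adjusted p = 0.0036). Itgb3, the subunit known from activated endothelium, osteoclasts and platelets, had levels of 7.26 to 7.46 (median 7.38) against 7.02 to 7.23 (median 7.15). It was 1.18-fold higher without overlap (adjusted p = 0.011 from limma). Itgb6 and Itgb8, which activate latent TGF-β together with Itgav, had differences of -0.07 and -0.10, and Itgb4, the hemidesmosome subunit, had 0.11, all 3 short of the test. Of 5 markers of duct cells, in which Itgb4 and Itgb6 are known, 0 were higher and 0 lower.

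Itgb1, the partner of most alpha subunits, moved by a small amount with little spread. Levels were 10.25 to 10.38 (median 10.36) in angiogenic and 10.01 to 10.24 (median 10.15) in non angiogenic islets. The lowest angiogenic array was just above the highest non angiogenic array, for a ratio of 1.15 (log2 difference 0.20, standard error 0.05, adjusted p = 0.035). Of 12 fits that dropped an array, 8 lost the call (adjusted p from 0.030 to 0.086) and those without non angiogenic replicates 4, 5 and 6 and angiogenic replicate 2 kept it. It was also lost after median centring and within either set, where the differences were 0.24 and 0.15. The log2 ratio of each alpha subunit to Itgb1 puts these differences side by side. It was added after the differences had been seen, restates them, and is given as a description, with no p-value drawn from it. The ratio changed by 0.65 for Itga1 (standard error 0.07), by 0.56 for Itga5 (0.10), by 0.43 for Itga9 (0.11) and by 0.16 for Itga6 (0.06). For Itga2, Itga4, Itga7, Itga8 and Itga11 the change was between 0.04 and 0.08, and it was -0.19 for Itgav, -0.29 for Itga3 and -0.31 for Itga10. Set against Itgav in the same way, Itgb5 changed by 0.30 (0.09) and Itgb3 by 0.24 (0.08).

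**Figure D2:**
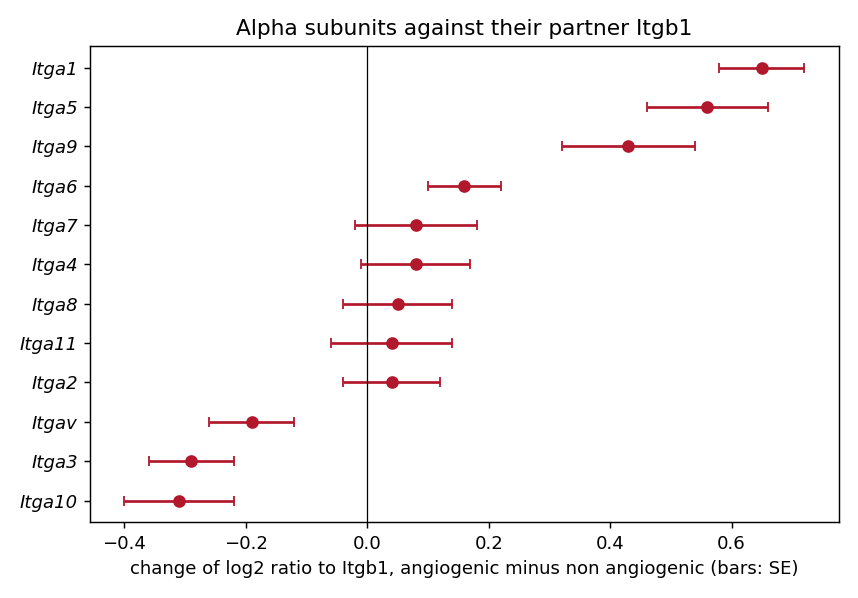
Change of the log2 ratio of each of 12 alpha subunit genes to Itgb1 between angiogenic and non angiogenic islets, in log2 units, with its standard error (12 arrays). The ratios restate the differences of single genes and are shown as a description, and the largest changes are those of Itga1 (0.65), Itga5 (0.56) and Itga9 (0.43).

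Whole islets were measured, so more cells of a type and more RNA per cell cannot be told apart. Markers of vessel and stromal cells were higher on the same arrays. Of 15 endothelial markers 13 were higher, and their mean log2 level per array was 9.49 to 9.64 in angiogenic and 8.97 to 9.16 in non angiogenic islets. For 13 markers of pericytes and smooth muscle, 12 were higher, with means of 8.52 to 8.88 against 7.87 to 8.05. For 10 fibroblast markers, 9 were higher, with means of 9.36 to 9.68 against 8.14 to 8.58. None of these ranges overlapped, and their part in the rise of the integrins was not tested. The study picked 4, 5 and 8 of these markers on the same arrays. The islets carried the markers of their label, since Ins2 and Iapp had mean log2 levels of 13.21 and 13.56 in angiogenic and 13.22 and 13.61 in non angiogenic islets, and 0 of 8 beta cell markers were higher and 1 (Ucn3) lower. With the array set as a block, 3 of the 8 were lower (Ucn3, Nkx6-1 and Slc2a2) and 0 higher, where 2.74% of all genes were lower. Acinar markers varied widely between arrays, with means from 7.99 to 11.65 and from 7.76 to 12.77, and 0 of 9 passed. Their median log2 difference was 0.43, with medians of 1.03 in replicates 1 to 3 and -0.17 in replicates 4 to 6. With this spread, the test does not show that the groups held equal amounts of acinar RNA.

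**Figure D3:**
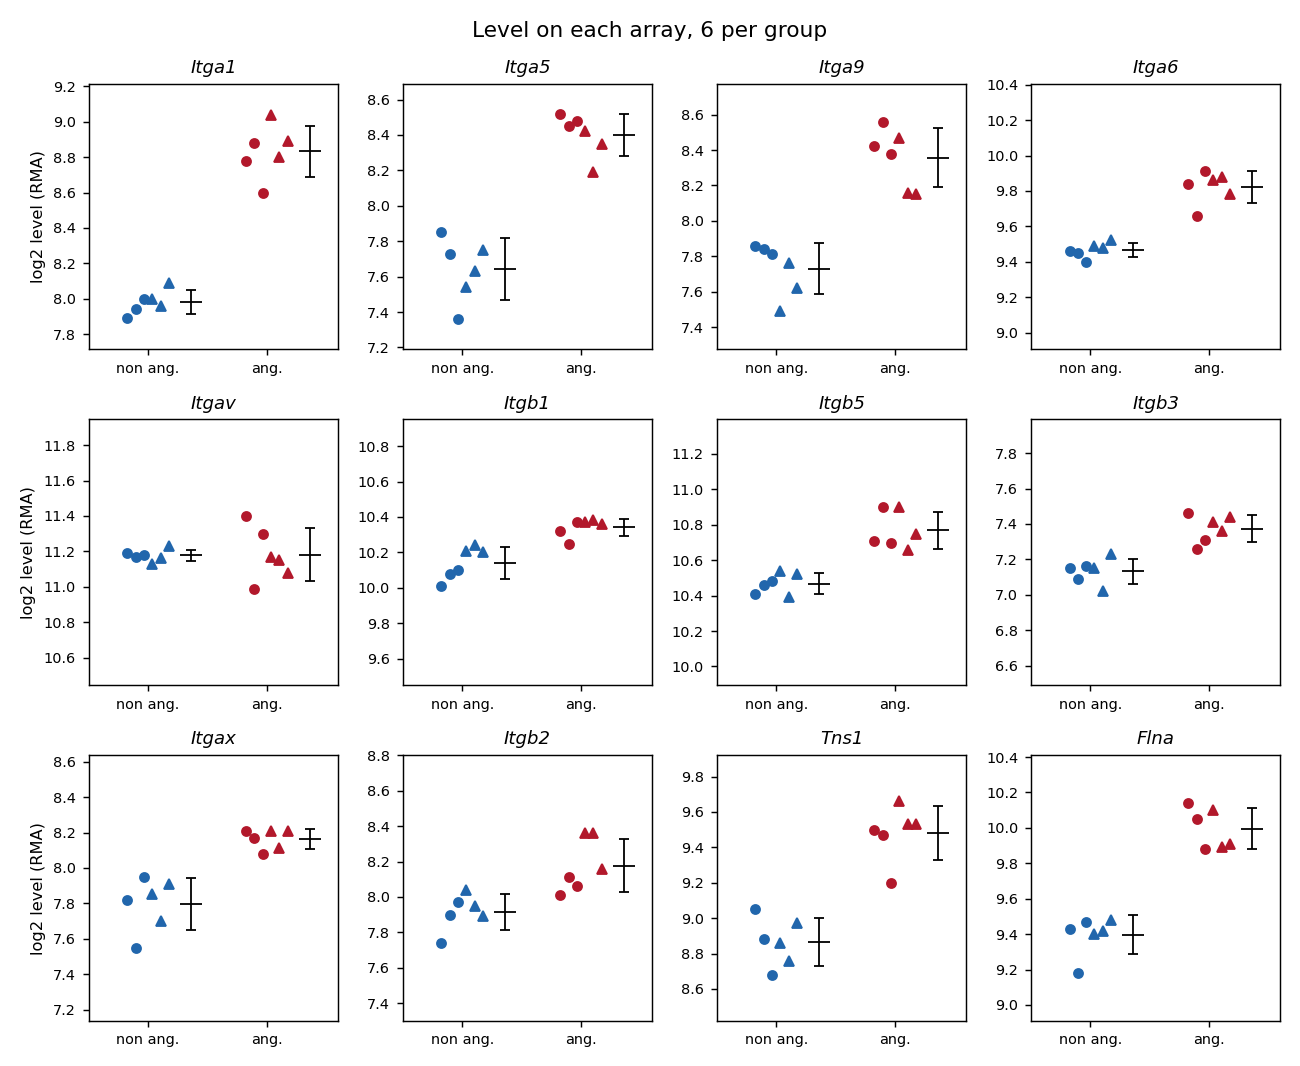
Log2 level on each of the 12 arrays for 12 genes, with circles for replicates 1 to 3, triangles for replicates 4 to 6, and the mean and SD of 6 arrays as bars. All panels span 1.5 log2 units. The groups are apart for every gene shown except Itgav and Itgb2.

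Of the leukocyte integrins, Itgax alone passed the test. Itgax encodes CD11c, carried by dendritic cells and many macrophages. Its log2 level was 8.08 to 8.21 (median 8.19) in angiogenic and 7.55 to 7.95 (median 7.84) in non angiogenic islets. The groups did not overlap, and the ratio was 1.29 (log2 difference 0.37 with a standard error of 0.06, limma adjusted p = 0.0029). Itgb2, the beta subunit that Itgax, Itgam, Itgal and Itgad share, had levels of 8.01 to 8.36 (median 8.14) against 7.74 to 8.04 (median 7.93). Only the ends of these ranges overlapped, and its difference of 0.26 missed the threshold (adjusted p = 0.052). It passed with the set as a block (adjusted p = 0.0068) and in 3 of 12 fits without 1 array, those without non angiogenic replicate 4, angiogenic replicate 1 and angiogenic replicate 3.

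The neighbours of Itgax on the chromosome did not pass. Itgam, Itgax and Itgad follow each other in the RefSeq annotation with no other protein-coding gene between. Itgam, the CD11b gene of myeloid cells, had a log2 difference of 0.13 (95% interval -0.01 to 0.27) and Itgad had -0.10 (-0.33 to 0.12). Itgal, the partner of Itgb2 on lymphocytes, had 0.05, and Itgae and Itgb7, which together bind E-cadherin on lymphocytes in epithelia, had -0.01 and -0.03. As a description, the log2 ratio to Itgb2 changed by 0.11 for Itgax (standard error 0.10), -0.13 for Itgam, -0.22 for Itgal and -0.36 for Itgad. Macrophage and monocyte markers were higher for 8 of 13, with means per array of 8.47 to 8.91 in angiogenic and 8.09 to 8.36 in non angiogenic islets. The study picked 3 of these 13 on the same arrays, and of the 10 others 5 were higher. Of neutrophil markers 0 of 9, and of T cell markers 0 of 8, were higher or lower. Their levels were low, so a change in these cells could be missed. Means per array were 5.53 to 5.65 in angiogenic and 5.46 to 5.67 in non angiogenic islets for neutrophil markers. For T cell markers they were 6.32 to 6.41 and 6.29 to 6.46, where array medians were 7.30 to 7.38. The part of these cells in the levels of Itgax and Itgb2 was not tested.

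Of the intracellular adaptors, Tns1 and Flna had the largest differences and Parvb passed with a smaller one. Tns1 encodes tensin 1, which binds integrin beta tails and actin at mature adhesions. Its level was 9.20 to 9.66 (median 9.52) in angiogenic and 8.68 to 9.05 (median 8.87) in non angiogenic islets. Its groups were apart, with a ratio of 1.53 (log2 difference 0.62 with a standard error of 0.08, limma adjusted p = 1.87e-04). The array holds 6 clusters for this gene and the brightest was used. The other clusters had differences of 0.47, 0.47, 0.35, 0.15 and -0.09, of which the 2 of 0.47 passed (adjusted p = 3.14e-04 and 0.0011 over all clusters), and the mean of all 6 gave 0.33. Tns3, a paralog, had 0.06 with a 95% interval from -0.02 to 0.15.

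Flna encodes filamin A, which crosslinks actin and binds integrin tails. Its log2 level ran from 9.88 to 10.14 (median 9.98) in angiogenic and from 9.18 to 9.48 (median 9.43) in non angiogenic islets. No arrays overlapped, and the ratio was 1.51 (log2 difference 0.60 with a standard error of 0.06, limma adjusted p = 5.21e-05), with 0.66 and 0.53 in the 2 sets. Parvb, the gene of beta-parvin, was 1.17-fold higher (7.31 to 7.49 against 7.09 to 7.33, adjusted p = 0.023). Its ranges overlapped slightly, and dropping any of 4 arrays ended the call, namely non angiogenic replicates 3 and 5 and angiogenic replicates 5 and 6 (adjusted p up to 0.063).

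The remaining 15 adaptors did not pass. Tln1 and Tln2, the talins that activate integrins, had differences of 0.14 and 0.00, and the kindlin genes Fermt2 and Fermt3 had 0.11 and 0.09. Vcl, the gene of vinculin, varied strongly between non angiogenic arrays (9.05 to 9.78) and had a difference of 0.20 with a 95% interval from -0.08 to 0.48. Of the complex of integrin-linked kinase, Ilk had 0.10, Parva 0.02, Parvg 0.15, Lims1 0.18 and Lims2 0.13. Pxn (paxillin) had 0.08, Zyx (zyxin) 0.07, and the alpha-actinin genes Actn1 and Actn4 both 0.16. All 15 had differences between 0.00 and 0.20, 14 of them above 0. Actn4 was the only one of them whose groups did not overlap (11.91 to 12.12 against 11.78 to 11.89, adjusted p = 0.076). Over the 44 genes, 13 had every angiogenic array above every non angiogenic array, against 2.85% of all genes, and 0 had the reverse (0.923%).

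**Figure D4:**
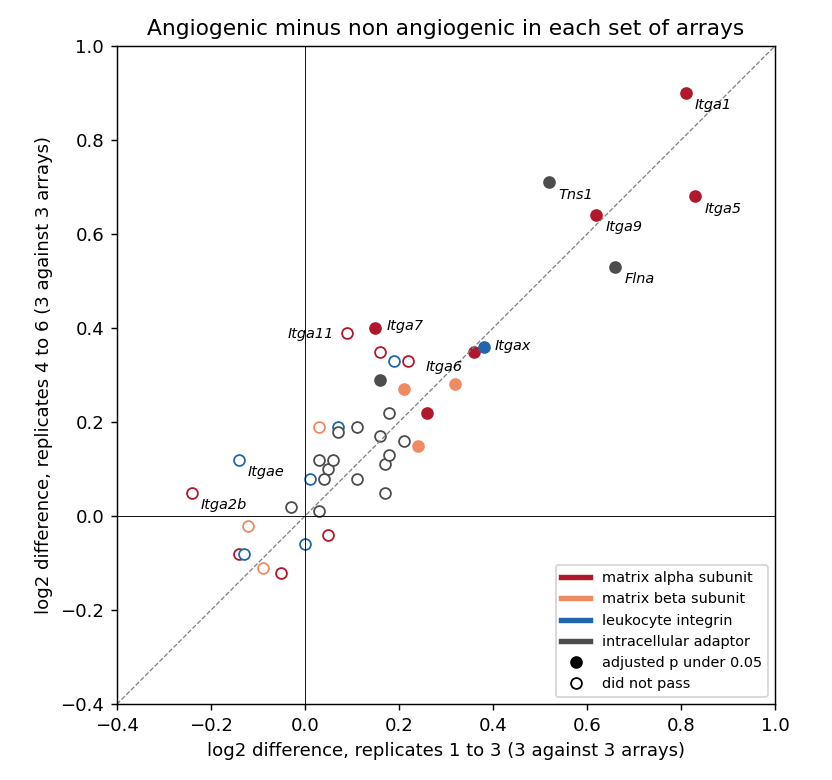
Log2 difference between angiogenic and non angiogenic islets in replicates 1 to 3 (horizontal) and in replicates 4 to 6 (vertical), 1 point per gene and 3 against 3 arrays on each axis. The dashed line marks equal differences, filled points passed the test over all 12 arrays, and all 13 of these lie above 0 on both axes.

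Genes around these members were counted from further lists. Of 33 genes whose products bind integrins, 21 were higher in angiogenic islets and 0 lower (63.6%, median log2 difference 0.50). Col1a1, Col1a2, Col3a1 and Postn are also in the list of fibroblast markers, so those counts share genes. The study itself picked 16 of the 33 on these arrays, so their direction is not independent evidence, and of the 17 others 5 were higher. Ligands with the largest differences were Fn1 (fibronectin, the ligand of Itga5) at 2.20, Tnc (tenascin-C, a ligand of Itga9) at 1.89, Postn (periostin) at 1.62 and Col1a1 at 1.56, all with adjusted p = 4.93e-07 or lower from limma. Vcam1, a ligand of Itga4, was higher by 0.73, while Vtn (vitronectin, bound by Itgav) had 0.32 (adjusted p = 0.11), Cdh1 (E-cadherin, bound by Itgae) -0.06 and Icam1, bound by Itgal and Itgam, 0.18 (adjusted p = 0.10). With the array set in the model, Vtn (limma adjusted p = 4.05e-04) and Icam1 (adjusted p = 0.031) did pass, and 25 of the 33 ligands were higher. Of 46 other genes of focal adhesions and integrin activation, 5 were higher and 0 lower (10.9%), and their median was 0.05. These 5 were Cav1 (caveolin 1) at 0.49 on the log2 scale, Fblim1 (migfilin, which binds filamin) at 0.44, the kinase gene Fyn at 0.44, Tgfb1i1 (Hic-5, a relative of paxillin) at 0.39 and Apbb1ip (RIAM, which brings talin to the membrane in leukocytes) at 0.33, with adjusted p = 0.017 or lower. Src had 0.00, Bcar1 -0.09, Rhoa 0.07 and Rac1 0.05, and none of these passed.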

How the data were processed

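RNA of islet pools was measured on 12 Affymetrix mouse gene arrays. The log2 values deposited by the authors, 1 per transcript cluster, came from RMA as run in Affymetrix Expression Console (per the labels, versions not given in the sources used here). RMA brings all arrays to 1 distribution, so a change in RNA per islet cannot be seen. The labels gave group and replicate number. Array medians lay between 7.30 and 7.38, and the number of arrays limits the precision.

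Of 35556 clusters, 21789 had 1 gene symbol in the platform annotation, 1621 had several and 12146 were unnamed. The brightest cluster by mean was taken for 999 genes, which left 19938. A match by gene identifier to the RefSeq table of GRCm38.p6 changed 0 symbols, and 83 genes had no match. lmFit and eBayes of limma 3.58.1 in R 4.3.3 compared the 6 arrays of each group with no covariate. Tests were two-sided, adjusted by Benjamini-Hochberg across every gene, at 0.05. The fit was tested on simulated data. Figures were drawn with matplotlib 3.10.9.

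The genes, their classes and the lists of ligands, adhesion genes and 10 cell types were chosen with earlier results of these data known. All 45 genes are accounted for. In each class up to 4 genes past the threshold with the largest difference were given by array, the partners and paralogs of those that passed were named, and of the ligand and adhesion lists the 4 largest differences that passed. The other genes that did not pass, the fifth adhesion gene, the ligands of named receptors, Src, Bcar1, Rhoa and Rac1 and the sequences shown go beyond this rule and were chosen after their values were seen. The rule would have shown promoters of adaptors that passed and hold a CArG box, of which there were 0. Alternatives were the methods' t-test, an intensity trend, array weights, median centring, quantile normalization, a filter on dim genes, the mean of clusters, the replicate number as a block and leaving out each array. Blocking on the array set, each set alone, ratios to a partner subunit and single clusters were added after the data were seen. Protein sequences were not used here.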

Additional observations from a re-analysis of the deposited data

Results flagged for a closer look

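In 3 of 88 groups of 6 arrays (44 genes in 2 groups), the array at one end lay far from the others by Dixon's criterion (gap over range), and chance gives about 1 in 20. Flna had a log2 level of 9.18 on non angiogenic replicate 2, where the next lowest array had 9.40. Fermt2 had 10.55 on angiogenic replicate 3, where the next had 10.41. Itgb7 had 6.69 on non angiogenic replicate 5, where the next had 6.79. No gene of the 44 differed between the 2 sets of arrays in its group difference at an adjusted p under 0.05 (interaction in limma).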

How the results depend on the processing

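The main comparison called 13 of 44 genes higher. Itga1, Itga5, Itga6, Itga9, Tns1 and Flna kept this call in all 24 alternatives, with differences of 0.81 to 0.90 for Itga1, and no called gene changed sign in any of them. Itgb3 and Itgb5 lost it only within a single set of arrays and Itgax only in replicates 1 to 3 alone. The counts were 10 higher after median centring (all 10 among the 13), 12 with an intensity trend, 13 with array weights (12 shared), 16 after quantile normalization, 14 without the 4985 dimmest genes 13 with the mean of all clusters and 12 by the methods' t-test after adjustment (11 shared). Leaving out each array in turn gave 9 to 12, with 9 without non angiogenic replicate 3 and without angiogenic replicate 6. Except for the methods' t-test, the share of all genes called under these settings is not given. A change in these counts can therefore not be read as particular to the 44 genes. Unadjusted, the methods' t-test gave 26 higher and 1 lower (Itga3), where 7.67% and 6.95% of all genes were called, with 12 adaptors, 2 leukocyte integrins and 8 higher and 2 lower other adhesion genes. Blocking on the array set, 20 were higher, among them 6 adaptors and 2 leukocyte integrins, and 1 other adhesion gene (Enah) was lower. Replicates 1 to 3 alone gave 6 higher, with 0 beta subunits of matrix integrins, 0 leukocyte integrins and 3 other adhesion genes, and replicates 4 to 6 alone gave 0 such beta subunits and 2 leukocyte integrins. These sets have 3 arrays a group. For leukocyte integrins the count of 1 became 2, by the addition of Itgb2, with array weights, after quantile normalization, without the 4985 dimmest genes and with the replicate block, and was 1 to 2 when arrays were left out. The interaction of group and set was not run with the methods' t-test, and Itgb6 was among the dimmest genes. The number of arrays limits what could be called.

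The replicate numbers were not taken to pair the arrays, since the deviations of same-numbered arrays from their group means correlated at 0.03 to 0.54 and different numbers of the same set at 0.16 to 0.60. With the replicate number as a block, 17 of the 44 genes were higher and 0 lower, and these held 5 adaptors. In the list of other adhesion genes 1 was lower under that block.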

Other observations

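Some of the genes differed between replicates 4 to 6 and replicates 1 to 3 of both groups, with group in the model (limma, adjusted over all genes). Itgad was lower in replicates 4 to 6 by a log2 difference of -0.35 (adjusted p = 9.78e-05), Zyx by -0.32 (adjusted p = 9.64e-04), Tln2 by -0.21 (adjusted p = 0.0096) and Actn1 by -0.19 (adjusted p = 0.0023). Itga4 was higher there by 0.27 (adjusted p = 0.010), Ilk by 0.17 (adjusted p = 0.021) and Lims1 by 0.17 (adjusted p = 0.0061). For Itga4, Lims1 and Actn1 the group difference passed the test once the set was in the model. The labels do not say what distinguished the sets, and whether they are the independent profiling experiments that the study mentions is not known here.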
